A study of Caenorhabditis briggsae with 16 samples.

Results

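Mir-54 miRNAs of *C. briggsae* came from 5 annotated hairpins, here called P1a, P1b, P1c, P2 and P3, whose arms differed in abundance by several orders of magnitude and did not all share the same dominant arm. They were followed in wild-type animals of the strain AF16, without treatment, by sequencing small RNAs from whole larvae once per hour from 18 to 33 h after synchronized L1 larvae had been plated at 25°C. Each hour holds 1 library, and the intervals given for it cover only the error of counting reads. The members were the 5 rows Cbr-Mir-54-P1a_3p, Cbr-Mir-54-P1b-v1_5p, Cbr-Mir-54-P1b-v2_5p, Cbr-Mir-54-P2_5p* and Cbr-Mir-54-P3_3p, taken by name and read together with every other row of the family, 12 of 372 rows in all. The rows -v1 and -v2 of P1b hold the same reads: the 5p rows were identical in 13 of 16 libraries and differed by at most 2 counts elsewhere, and the 3p rows were identical in all 16. P1b was therefore counted once, which leaves 10 arms, 4 listed and 6 partners. All 10 passed the filter of at least 10 counts in at least 8 libraries, as did 311 of the 372 rows. Below, the prefix Cbr-Mir-54- and the suffix -v1 are left out of arm names.

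A miRNA hairpin is cut into a duplex of a 5p and a 3p strand. As a rule one of them, the guide, is kept in an Argonaute protein and represses mRNAs through its seed, while the passenger strand is degraded. Mir-54 takes its name from miR-54 of *C. elegans*, a member of the miR-51 family, whose joint loss in that species causes embryonic lethality with defects in pharynx attachment. An asterisk in an arm name is the passenger mark of the deposited annotation.

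Levels are given as normalized counts, the count over its library's total times the mean of the totals. A normalized count is thus a share, which moves when other miRNAs in the library move. Reads were counted by where they start, so arm length does not enter, but reads that match several loci were kept and close paralogues can share them. The total count per library was 9588599 to 15866144. The 21 h library, with 10084311 counts, lay farthest from its neighbours: its 244 arms averaging 100 counts or more differed from the mean of the 20 h and 22 h libraries by a median of 0.25 (log2), against 0.065 to 0.16 for the other hours between 19 and 32 h. The part of this in the results was not tested. Some results that rest on the 21 h library are also given without it, and others are given with it only. In whole animals, fewer cells that express a miRNA cannot be told apart from less of it per cell.

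P3_3p dominated the family. With a mean of 895147 normalized counts it was the 3rd most abundant of 356 arms (-v2 rows left out), and it held 86.5 to 90.3% of all Mir-54 counts in every library. The family as a whole took 6.62 to 8.82% of the counts of a library, lowest at 21 h and highest at 18 h. P3_3p was also steady as a share of the library total. It had 746633 normalized counts at 21 h, a median of 893359 and 958426 at 25 h. This range of 1.28-fold narrowed to 1.13-fold without the 21 h library. Its SD over the 16 hours was 0.092 (log2), against a median of 0.42 over the same 244 arms. On other scales it was called rising, by 0.016 (log2) per h with TMM factors and 0.023 with median-of-ratios size factors (edgeR, adjusted p = 0.017 and 0.0065).

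The 3p arms of the other hairpins formed a ladder below P3_3p. P2_3p ranked number 25, with 63818 normalized counts at 21 h, a median of 89787 and 105803 at 18 h. P1a_3p and P1c_3p followed at numbers 80 and 82. P1a_3p had 4023 normalized counts at 21 h, a median of 12383 and 20335 at 18 h, and P1c_3p had 6558 at 21 h, a median of 11740 and 12607 at 32 h. Without the 21 h library, P2_3p ranged over 1.32-fold instead of 1.66-fold. P1a_3p then ranged over 2.52-fold instead of 5.05-fold, and P1c_3p over 1.36-fold instead of 1.92-fold. These 2 arms overlapped: the ratio of P1a_3p to P1c_3p had a median of 1.04, between 0.61 (21 h) and 1.89 (18 h). P1b_3p*, with 45 to 127 normalized counts, stood far below at number 246. P3_3p exceeded P2_3p by 9.001-fold (18 h) to 11.7-fold (21 h) over the libraries, and exceeded P1a_3p by 46.8-fold (18 h) to 186-fold (21 h).

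The 5p arms were much closer together. P1c_5p* had a mean of 4303 normalized counts, P1b_5p 3029, P1a_5p* 1604, P3_5p* 954 and P2_5p* 549. The highest and the lowest thus differed by 7.84-fold, against 9464-fold between the 3p arms. The 3p spread reaches down to the passenger arm P1b_3p*, with a mean of 94.6, while the next lowest, P1c_3p, had 11160. The order of the 5p arms was also not that of the 3p arms: P3, the highest by its 3p arm, came after P1c, P1b and P1a by its 5p arm, and P1b, the lowest by its 3p arm, came just after P1c. P3_5p* stayed above P2_5p* in every library, by 1.52- to 1.98-fold. P1b_5p and P1c_5p* crossed, with a ratio of 0.41 at 28 h and 1.14 at 22 h.

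**Figure D1:**
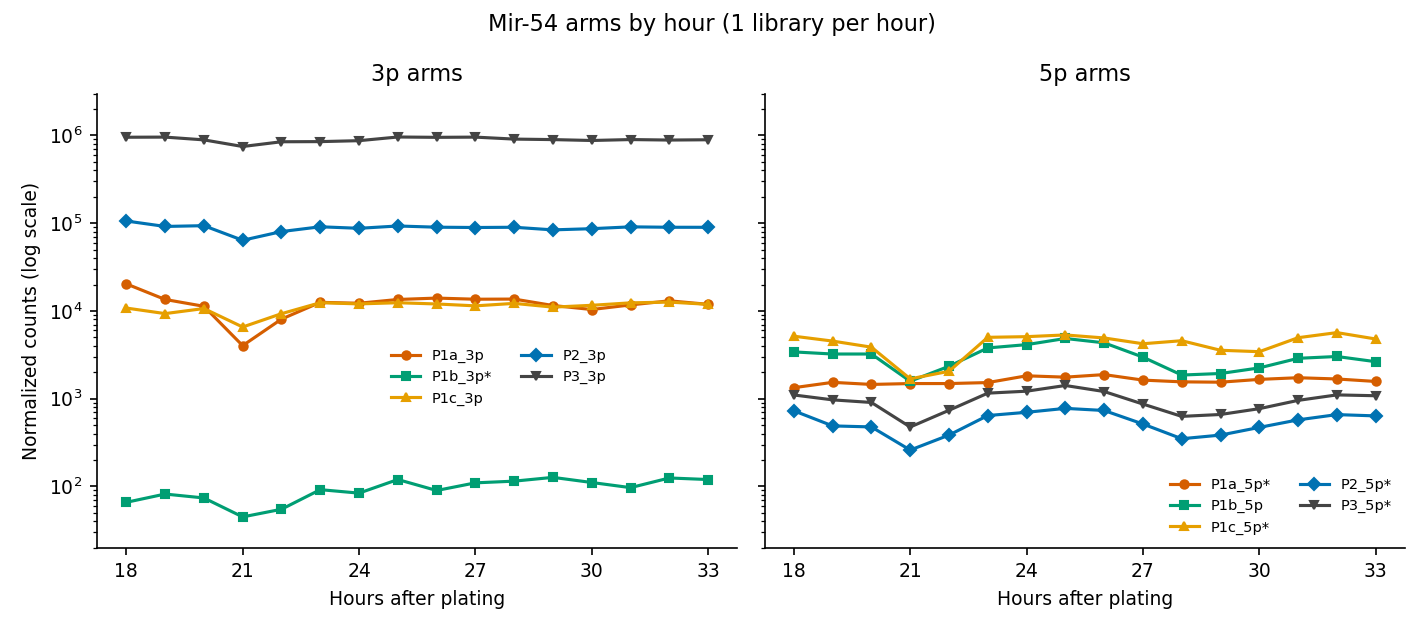
Normalized counts (log scale) of the 5 Mir-54 3p arms (left) and 5p arms (right) against hours after plating, with 1 point per library. The 3p arms spread over 9464-fold by their means, down to the passenger arm P1b_3p*, and the 5p arms over 7.84-fold. Of the 10 arms, 9 had their lowest value at 21 h, all but P1a_5p*. The share of all arms lowest at 21 h was not counted.

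The 3p arm was dominant in P1a, P1c, P2 and P3 in 16 of 16 libraries, and the 5p arm in P1b in 16 of 16. Over the whole table the 3p arm was the more abundant in 129 of the 176 hairpins with both arms listed and a mean of at least 10 counts. How strongly the dominant arm outweighed its partner differed between paralogues. The 3p arm of P3 made up 99.853% (25 h) to 99.936% (21 h) of the hairpin's counts, a ratio of 678 to 1567. In P2 it made up 99.2% to 99.6%, a ratio of 120 to 256, so the listed arm P2_5p* was the minor one throughout, as its asterisk says. In P1c both arms were well represented, with the 3p arm at 67.3% (19 h) to 81.9% (22 h). In P1a the median was 88.4% for the 3p arm, the lowest value 73.0% (21 h) and the highest 93.8% (18 h). In P1b the 5p arm exceeded the 3p arm by 15.3-fold (29 h) to 51.8-fold (18 h). The asterisk was on the less abundant arm in all 5 hairpins. How often this held over the whole table was not counted.

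P1b was the hairpin whose balance of arms differed between the first and the second part of the course. Its 3p share was 1.89% at 18 h (95% exact binomial interval 1.49 to 2.38%), 2.41% at 25 h (1.999 to 2.88%) and 2.04% at 26 h (1.65 to 2.49%). Later it was 5.84% (4.84 to 6.98%), 6.14% (5.07 to 7.36%) and 4.35% (3.57 to 5.25%) in the libraries of 28, 29 and 33 h. From 27 h on every library had a smaller ratio of 5p to 3p counts than any library up to 26 h. The mean log2 ratio of 3p to 5p was -5.41 ± 0.18 over 18 to 25 h and -4.56 ± 0.53 over 26 to 33 h (SD, n = 8 libraries each), a difference of 0.84 (2-sided exact permutation test over 12870 groupings, p = 0.0014, adjusted p = 0.014 over 176 hairpins). The test treats hours as independent, which neighbouring hours are not. Of the 176 hairpins, 12.5% had a higher 3p share late and 13.1% a lower one at an adjusted p under 0.05, so 1 of 5 Mir-54 hairpins is near the share of the whole table. The difference was -0.02 to 0.14 in the other 4 (adjusted p = 0.67 to 0.97, exact permutation test). It stayed called for P1b with each hour left out, at 0.75 to 0.99.

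**Figure D2:**
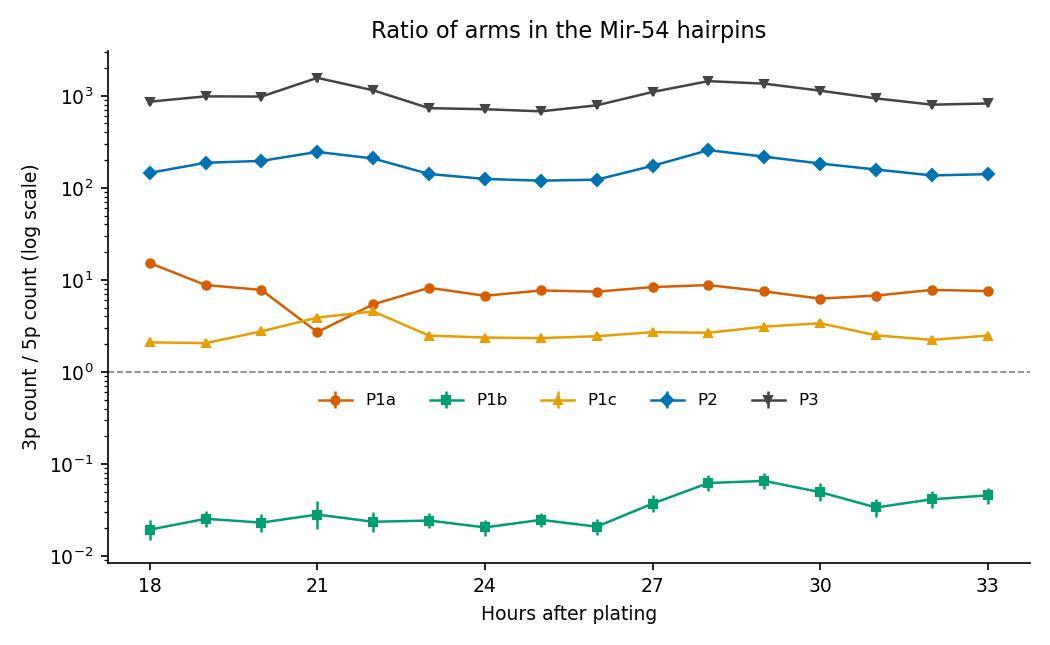
Ratio of 3p to 5p counts (log scale) in each Mir-54 hairpin against hours after plating, with exact 95% binomial intervals that are mostly smaller than the points. The dashed line marks equal counts: P1b lies below it in all 16 libraries and the other 4 hairpins above it, P1a is lowest at 21 h with a ratio of 2.71, and P1b is highest at 28 and 29 h.

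The 5p arms of P1b, P2 and P3 were called rhythmic at a set period of 7 h. They had low points at 21 and 28 h and a high point at 25 h between them. Rhythm and trend were tested for all 311 arms with edgeR on the counts, in 1 model that holds the hour and a wave (cosine, sine) of 7 h. The study used this period for its *C. elegans* course. Neighbouring hours are not independent, and these p-values measure the scatter of single libraries around the model. The test called 3 of the 10 Mir-54 arms rhythmic, against 7.4% of all arms tested.

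P2_5p* had 477, 260, 776, 350 and 659 normalized counts in the libraries of 20, 21, 25, 28 and 32 h. Its amplitude was 0.54 on the log2 scale, with a fitted peak at 24.8 h (edgeR, adjusted p = 0.012). P3_5p* had 906, 476, 1414, 629 and 1105 in the same libraries, with an amplitude of 0.49 and a fitted peak at 24.8 h (edgeR, adjusted p = 0.012). Both passenger arms thus went through the same order of lows and highs, although their hairpins differ 10.1-fold in the median ratio of their 3p arms. Both stayed called when any single hour was left out, with an adjusted p of 0.0045 to 0.028 for P2_5p* and 0.0062 to 0.035 for P3_5p* from edgeR.

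P1b_5p, the dominant arm of its hairpin, followed the same course at a higher level. Its normalized counts in the libraries of 20, 21, 25, 28 and 32 h were 3230, 1582, 4855, 1860 and 3026. Its amplitude was 0.49, with a fitted peak at 24.9 h (edgeR, adjusted p = 0.029). This call was lost without the 21, 22, 24, 25, 28 or 29 h library (edgeR, adjusted p = 0.069, 0.065, 0.063, 0.074, 0.084 and 0.076). With each hour left out, edgeR's adjusted p for P1b_5p was between 0.011 and 0.084. None of the 3 arms was called at a period of 6 h (edgeR, adjusted p = 0.32 to 0.36), and all of them were called at 8 h (edgeR, adjusted p = 0.0035 to 0.021).

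The remaining 5p arms behaved differently from each other. P1c_5p* had the same first low, with 1684 normalized counts at 21 h, but stood at 4578 at 28 h and reached its second low only at 30 h with 3433. Its amplitude was 0.43 with an adjusted p of 0.095 from edgeR, which passed the threshold with median-of-ratios size factors, DESeq2, a quadratic trend or without the 28 h library (adjusted p = 0.023 to 0.048). P1a_5p* showed little change, with 1335 normalized counts at 18 h, a median of 1564 and 1882 at 26 h, and an amplitude of 0.065 (edgeR, adjusted p = 0.67). No 3p arm was called rhythmic: amplitudes were 0.074 for P3_3p, 0.12 for P2_3p, 0.14 for P1c_3p, 0.10 for P1b_3p* and 0.33 for P1a_3p (edgeR, adjusted p = 0.26 to 0.78). That an arm was called and its partner was not does not by itself show that they differ, and this difference was not tested.

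As a description, the log2 levels of P2_5p* and P3_5p* over the 16 hours had a Pearson r of 0.98, those of P1b_5p and P3_5p* 0.95, and those of P1b_5p and P2_5p* 0.90. Without the 21 h library these were 0.96, 0.93 and 0.86. The levels of the arms of 1 hairpin were less alike, with r = 0.59 for P3, 0.74 for P2, 0.85 for P1c, 0.17 for P1b and 0.10 for P1a, and 0.27, 0.54, 0.67, -0.19 and -0.14 without the 21 h library. Of the pairs of 3p arms, P2_3p with P1a_3p had the highest r, 0.96, and 0.87 without the 21 h library. The other pairs of 3p arms had 0.44 to 0.88, and -0.14 to 0.70 without that library. Arms in the same libraries share the library total, and hours follow each other, so these values carry no p. Since P3_5p* and P2_5p* differed in ratio between libraries, from 1.52 at 18 h to 1.98 at 19 h, their counts were not copies of each other, but reads shared in part cannot be told apart by counting.

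**Figure D3:**
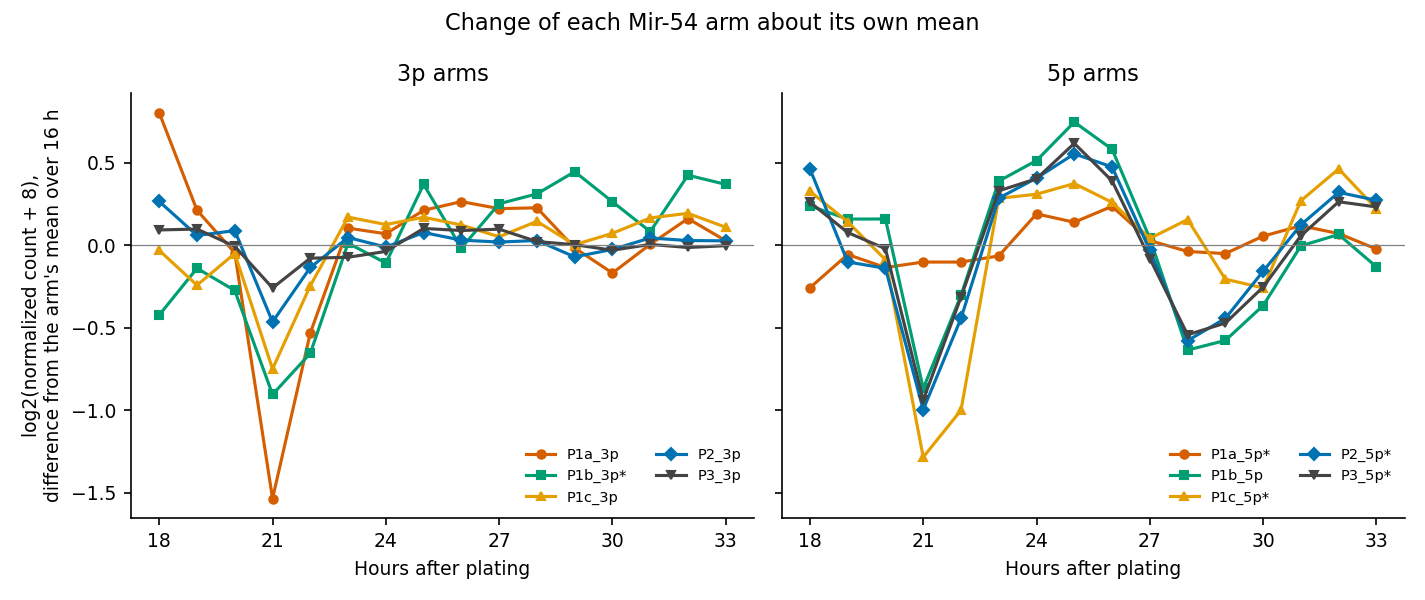
log2(normalized count + 8) of each Mir-54 arm as the difference from its own mean over 16 h, for 3p arms (left) and 5p arms (right) on the same axis, with 1 point per library. P1b_5p, P2_5p* and P3_5p* are low at 21 and 28 h and high at 25 h, P1a_5p* stays near its mean, and P1a_3p has the deepest single value, at 21 h.

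Beside the rhythm calls, few Mir-54 arms had a called trend over the course. edgeR called 1 of 10 arms rising and 0 falling, against 27.0% and 41.5% of all arms. At an unadjusted p under 0.05, 0 were falling and 2 rising, and DESeq2 and limma called 0 falling and 2 rising. The second rising arm was P1c_3p, with a log2 slope of 0.024 ± 0.010 per h (SE, edgeR adjusted p = 0.058). Its adjusted p was 0.049 with DESeq2 and 0.048 with limma, and it passed the threshold in 10 alternatives in all, with an adjusted p of 0.00049 to 0.12 over all of them. P1b_3p* was the rising arm, with 66 normalized counts in the first library and 120 in the last, with a log2 slope of 0.068 ± 0.017 per h (SE, edgeR adjusted p = 0.0023). It had 36 to 118 counts per library, the fewest of the family. The median Mir-54 arm changed by 0.015 (log2) over 15 h, and the median of all 311 arms by -0.44. P3_3p changed by 0.017 and P2_3p by -0.035 over the same 15 h, with an adjusted p of 0.83 and 0.78 from edgeR. These values depend on the scale. Of all arms, edgeR called 84 rising and 129 falling on library totals, 101 and 115 with TMM factors, and 110 and 108 with median-of-ratios size factors, and the median of all arms was -0.21 with TMM factors and -0.11 with median-of-ratios size factors. On these scales edgeR called 4 and 5 Mir-54 arms rising, P3_3p, P1a_5p*, P1c_3p and P1b_3p* on both and P1c_5p* on the second, and 0 falling.

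Most of the family was lower at 21 h than at 20 h. This step is a comparison of 1 library with 1 library, chosen with earlier results of these data known, and is given without a test. At 21 h, 7 of 10 Mir-54 arms were at least 1.5-fold lower than at 20 h and none was 1.5-fold higher, against 22.5% lower and 11.6% higher among all 311 arms. The median log2 step was -0.81 over the Mir-54 arms and -0.07 over all arms. Arms marked with an asterisk were lower as a class: with -v2 rows left out, 36 of 108 (33.3%) were 1.5-fold lower, with a median of -0.30, against 25 of 188 unmarked arms (13.3%), with a median of 0.07. Of the 5 asterisk arms of Mir-54, 4 were 1.5-fold lower (median -0.88), and of its 5 unmarked arms 3 were (median -0.70). In each of the other 14 hourly steps, 0 to 1 Mir-54 arms were 1.5-fold lower, against 2.57 to 12.2% of all arms. From 21 to 22 h, 2 of 10 were 1.5-fold higher, against 17.0% of all arms. From 22 to 23 h, 6 of 10 were, against 16.4%.

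The size of the step differed between paralogues and between arms. P1a_3p, with 11293 and then 4023 normalized counts, was 2.81-fold lower (95% counting interval 2.70 to 2.92), the 7th lowest step of 311 arms. P1c_5p* was 2.29-fold lower (2.16 to 2.44) and P1b_5p 2.04-fold lower (1.92 to 2.18). P3_5p* and P2_5p* were 1.90-fold (1.69 to 2.14) and 1.84-fold lower (1.56 to 2.16), and their intervals overlap. The 3p arms of P1b and P1c were 1.67-fold lower (1.12 to 2.54) and 1.62-fold lower (1.57 to 1.68). P2_3p lay just outside the 1.5-fold limit, at 1.47-fold lower (1.45 to 1.48). P3_3p was 1.19-fold lower (1.187 to 1.194), and P1a_5p* did not differ beyond counting error, with a ratio of 1.02 (0.949 to 1.10).

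Within a hairpin the arms therefore took unequal steps, with the 3p arm lower by more in P1a and the 5p arm lower by more in P1c, P2 and P3. In P1a the dominant arm was lower and the passenger arm was not, so the 3p share went from 88.6% at 20 h (88.1 to 89.1%) to 73.0% at 21 h (71.7 to 74.3%) and 84.4% at 22 h (83.7 to 85.1%). In P1c the 3p share went the other way, from 73.4% (72.7 to 74.0%) to 79.6% (78.6 to 80.5%), and in P3 from 99.898% (99.892 to 99.904%) to 99.936% (99.930 to 99.942%). In P2 it went from 99.493% (99.448 to 99.534%) to 99.594% (99.536 to 99.647%). In P1b the intervals at 20 h (1.80 to 2.78%) and 21 h (1.93 to 3.77%) overlap. These shares do not depend on the library total.

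The step was largely undone by 23 h. From 21 to 22 h P1a_3p was 2.005-fold higher (1.93 to 2.09), and P1c_5p*, which changed by 1.22-fold in that hour, was 2.44-fold higher from 22 to 23 h (2.33 to 2.56). For 8 of the 10 arms, all but P1a_5p* and P1c_5p*, the step from 20 to 21 h was the largest of the 15 in size. The matching count over all tested arms was not made, so this is not shown to be particular to Mir-54. Without the 21 h library, from 20 to 22 h, 1 of 10 arms was 1.5-fold lower, against 35 of all 311 arms. It was P1c_5p*, at a ratio of 0.531. The median log2 change was -0.30 over the Mir-54 arms and -0.02 over all arms. All 9 arms that had been lower at 21 h still had a ratio below 1 at 22 h, from 0.531 to 0.952. For P1b_3p* (0.740), though, the interval in log2, -0.92 to 0.047, includes no change. How many of all arms were below 1 was not counted. The later low of P1b_5p, P2_5p* and P3_5p* does not involve the 21 h library: in the libraries of 26, 28 and 29 h P1b_5p had 4331, 1860 and 1937 normalized counts, P2_5p* 734, 350 and 385, and P3_5p* 1207, 629 and 661.

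**Figure D4:**
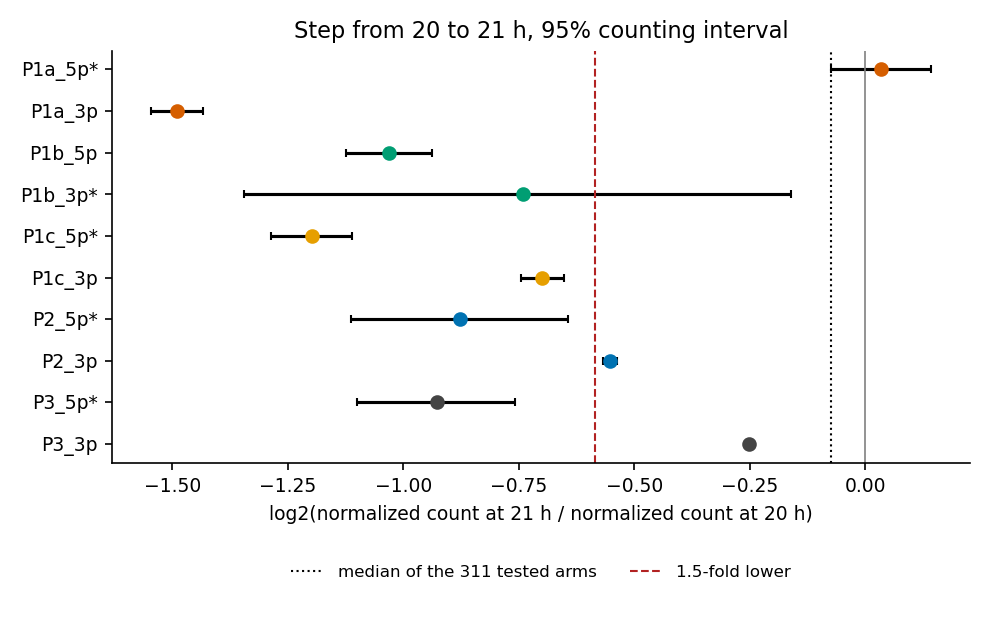
log2 ratio of normalized counts at 21 h to those at 20 h for the 10 Mir-54 arms, with exact 95% intervals from the counts of the 2 libraries. Of the 10 arms, 7 lie left of the dashed line (1.5-fold lower), P2_3p and P3_3p lie between it and the dotted median of the 311 tested arms, and P1a_5p* lies at 0.033.

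The arms not named Cbr-Mir-54- whose level ran most like that of each listed member were found among 235 arms averaging 100 counts or more. Arms were left out by name only, and whether any of those kept is related in sequence was not checked. For P1a_3p they were Cbr-Mir-190_5p (Pearson r = 0.92 over 16 libraries) and Cbr-Mir-36-o23_3p (0.85). For P1b_5p they were Cbr-Mir-87-o1_5p* (0.85) and Cbr-Mir-305-P1_3p* (0.81). For P2_5p* they were Cbr-Bantam-P2_5p* (0.82) and Cbr-Mir-255_3p (0.81), and for P3_3p Cbr-Mir-52-P1_5p (0.83) and Cbr-Mir-7584_5p (0.80). All these values were lower without the 21 h library, at 0.73 and 0.68, 0.80 and 0.73, 0.72 and 0.68, and 0.58 and 0.45. P1b_5p and P2_5p* thus ran closer to P3_5p*, at 0.95 and 0.98, than to any of the outside arms searched.

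The Mir-10 family, which holds the miR-100 miRNAs of other animals, served as a comparison list, and among its 8 arms edgeR called 2 rising, 4 falling and 2 rhythmic, against 27.0%, 41.5% and 7.4% of all arms. Their median change over 15 h was -0.76 (log2), against -0.44 for all arms and 0.015 for the Mir-54 arms. Among those averaging 100 counts or more, the steepest falls were those of Cbr-Mir-10-P2_5p, which fell by 0.054 per h on the log2 scale, and Cbr-Mir-10-P1_5p, which fell by 0.047 per h. The rising arms were Cbr-Mir-10-P2_3p*, at 0.077 per h, and Cbr-Mir-10-P3n_5p, at 0.035 per h (adjusted p = 6.7e-08 to 0.040 from edgeR for these 4 arms).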

How the data were processed

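Small RNA libraries (Illumina TruSeq small RNA kit, single-end reads) were made from whole *C. briggsae* animals, 1 per hour. The authors trimmed adapters, mapped reads with QuasR and Bowtie, keeping reads with several hits, and deposited counts of sense reads starting close to an annotated 5′ end. Assembly WS225 and MirGeneDB are named in the methods, ce10 in the submitters' processing notes; for QuasR and Bowtie, no version is given in the sources used here. The deposited log2 values are counts scaled to the mean library total plus a pseudocount of 8; recomputing the 5952 values from the counts left differences of at most 0.0005, and they were otherwise not used.

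Samples were grouped by the hour in the labels. Trend and rhythm were tested with edgeR 4.0.16 (R 4.3.3, glmQLFit and glmQLFTest, library size = total, Benjamini-Hochberg over 311 arms, threshold 0.05), which takes its error from the scatter of the 16 libraries around the model. Ratios of arms (pseudocount 0.5) were compared between 26 to 33 h and 18 to 25 h by exact permutation. Intervals are exact at 95% and, since reads carry no molecular identifiers, cover counting error only. The scripts were tested on simulated data. Alternatives were TMM and median-of-ratios factors, DESeq2 1.42.0, limma 3.58.1 (pseudocounts of 8 and 1), no filter, periods of 6 and 8 h, no -v2 rows, no rhythm terms, a quadratic trend, other pseudocounts and minimums for arm ratios, and each hour left out. Python 3.11.15, numpy 2.4.6, scipy 1.17.1, pandas 2.3.3 and matplotlib 3.10.9 were used.

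The members, lists and tests were chosen with earlier results of these data known. Named arms are all Mir-54 rows, up to 4 of Mir-10 (the 2 largest rises and 2 largest falls past the threshold averaging 100 counts or more), and the 2 outside arms most correlated with each listed member. No arm sequences or coordinates were used here.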

Additional observations from a re-analysis of the deposited data

How the results depend on the processing

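The 3 Mir-54 arms called rhythmic became 0 at a period of 6 h, and among all arms the count of 23 was 3 at 6 h and 12 at 8 h. DESeq2 gave 39, a quadratic trend 55, and leaving out hours 14 (without 22 h) to 29 (without 18 h). The 1 Mir-54 arm rising became 4 under TMM scaling and 5 under median-of-ratios scaling, and 2 with DESeq2, with limma at either pseudocount, at 6 h and with no rhythm terms, and 1 to 2 with each hour left out. The 0 Mir-54 arms falling were 0 to 1 with each hour left out, the 1 being P1b_5p without 18 h (adjusted p = 0.042 from edgeR). From 20 to 22 h, an alternative chosen after seeing the data, the 7 Mir-54 arms that were 1.5-fold lower became 1 and the 70 of all arms became 35. With 19 and 20 h against 21 and 22 h the 70 became 37, and the Mir-54 arms 6. The counts of all arms rising and falling and of hairpins with a changed arm ratio stayed within 1.5 times of the values given in every alternative run. The cause of these differences was not tested. No paired analysis was possible because each hour holds 1 library. With 36 to 118 counts per library, P1b_3p* is the arm limited most by depth.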
